A study of Mus musculus with 6 samples.

Results

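The genes described here carry out or restrain 3 forms of programmed cell death: apoptosis, pyroptosis and necroptosis. Members were every gene whose symbol begins with Casp and a number, Bcl2, Gsdm with a letter from a to e, or Ripk with a number from 1 to 5, plus 16 named genes of the same pathways (Mcl1, Bak1, Bid, Bad, Bik, Bmf, Pmaip1, Xiap, Birc2, Birc3, Cflar, Fadd, Mlkl, Apaf1, Diablo and Fas). The table held 52 such genes among 32219. The symbols alone chose them, not their values. Of the 52, 49 were above 0 in all 5 libraries with values for the whole genome, and 50 could be tested.

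RNA-seq of mouse intestine was compared between 3 knockout (KO 1 to KO 3) and 3 wild-type (WT 1 to WT 3) libraries. The genotype label reads KO or WT. The sources used here do not give the knocked-out gene, the allele, any Cre driver, the strain, the sex or the age. Nor do they say whether each library is a separate animal, so every p-value measures the spread between these libraries, which may be technical. Per the labels, TRIzol was used for extraction, messenger RNA was enriched by its poly(A) tail, and a stranded kit for very low input gave the libraries. Values are log2(abundance + 1), deposited by the authors. No source used here says whether abundance was divided by gene length, so levels are compared between libraries and not between genes.

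KO 1 differed from the other 5 libraries before any comparison. It had values on chromosomes 1 and 10 to 18 and the start of chromosome 19, listed 9729 genes above 0 against 22061 to 22768 in the others, and covered 21 of the 52 genes. Its zeros for the other 31 were treated as missing, its remaining values were divided by 2.14 on the linear scale, and it was left out of the test. The series title names Dhx9 and Gpr41 (Ffar3). Dhx9 was at 6.17 and 6.08 in KO 2 and KO 3, with rescaled KO 1 at 6.02, against 5.94, 6.01 and 5.97 in WT, and Ffar3 was at 0.35 and 0.59 against 0.60, 0.18 and 0.46, so neither level checks the KO label.

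The tissue markers did not all fit the label of whole duodenum. Fabp6, an ileal bile acid binding protein, stood at 3.90 in rescaled KO 1 and between 8.16 and 8.76 in the other 5 libraries. Lactase (Lct), an enzyme of the proximal small intestine, stood at 7.04 in rescaled KO 1 and between 1.08 and 2.02 in the other 5, and the proximal factor Gata4 at 5.18 in rescaled KO 1 and between 0.43 and 0.63 in the other 5. The median of 5 distal markers was 4.28 below the WT mean in KO 1 over the 2 it covers, and that of 5 proximal markers 4.65 above it over 3. All 9 epithelial, 9 leukocyte and 8 enteric neuron markers were above 0 in at least 1 of the 5 libraries, as the cell type label lists. In bulk tissue, fewer cells of a type and less RNA per cell cannot be told apart.

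Apoptosis runs through caspases, proteases that cleave other proteins after aspartate. In the mitochondrial route, BH3-only proteins tip the balance between pro-survival BCL2 proteins and the pore formers BAX and BAK, and released cytochrome c assembles APAF1 and caspase-9. In the death receptor route, FAS or TNF receptors recruit FADD and caspase-8. When caspase-8 is blocked, RIPK1 and RIPK3 can instead activate MLKL, which breaks the plasma membrane in necroptosis. Pyroptosis is executed by gasdermins, which form membrane pores once a caspase has cut them. In the gut, these programmes take part in the turnover and shedding of epithelial cells and in the defence of the epithelium against microbes.

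None of the 50 genes tested differed between KO 2 with KO 3 and the 3 WT libraries at an adjusted p under 0.05. The test was limma on all 23408 genes kept, of which 1 passed (0.00427%), the predicted gene Gm49380. At an unadjusted p under 0.05 there was 1 of the 50, Bad, beside 565 of all genes (2.41%). The KO and WT values did not overlap for Bad and Gsdmc4, 4% of the 50 beside 13.3% of all genes. Of the 50, 31 had a positive difference (KO minus WT) and 19 a negative one, and 62% positive stood beside 60.8% over all genes. After median centring of each library the split was 22 positive and 28 negative.

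The differences were small and their errors were of similar size. The largest among the 50 was -0.35 (Gsdmc4). At a mean level of 1 or more, which 44 genes reached, the median absolute difference was 0.0926 for these genes and 0.0776 over all 14311 such genes, while standard errors ran from 0.10 to 0.38 with a median of 0.15. The median SD between KO 2 and KO 3 was 0.187 for the members and 0.118 for all genes, and that among the WT libraries 0.136 and 0.143. In values simulated on the spread of these 5 libraries, the same test found 47% of 2-fold and 86.8% of 4-fold changes, so a change of 2-fold or less may not be detectable here. The changed genes were drawn from those at or above the median WT level. In each run 200 genes were changed at once, which eases the adjustment, so a lone change would be found less often than these shares. Values were drawn independently for each gene, so shifts shared by many genes of a library were not simulated.

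**Figure D1:**
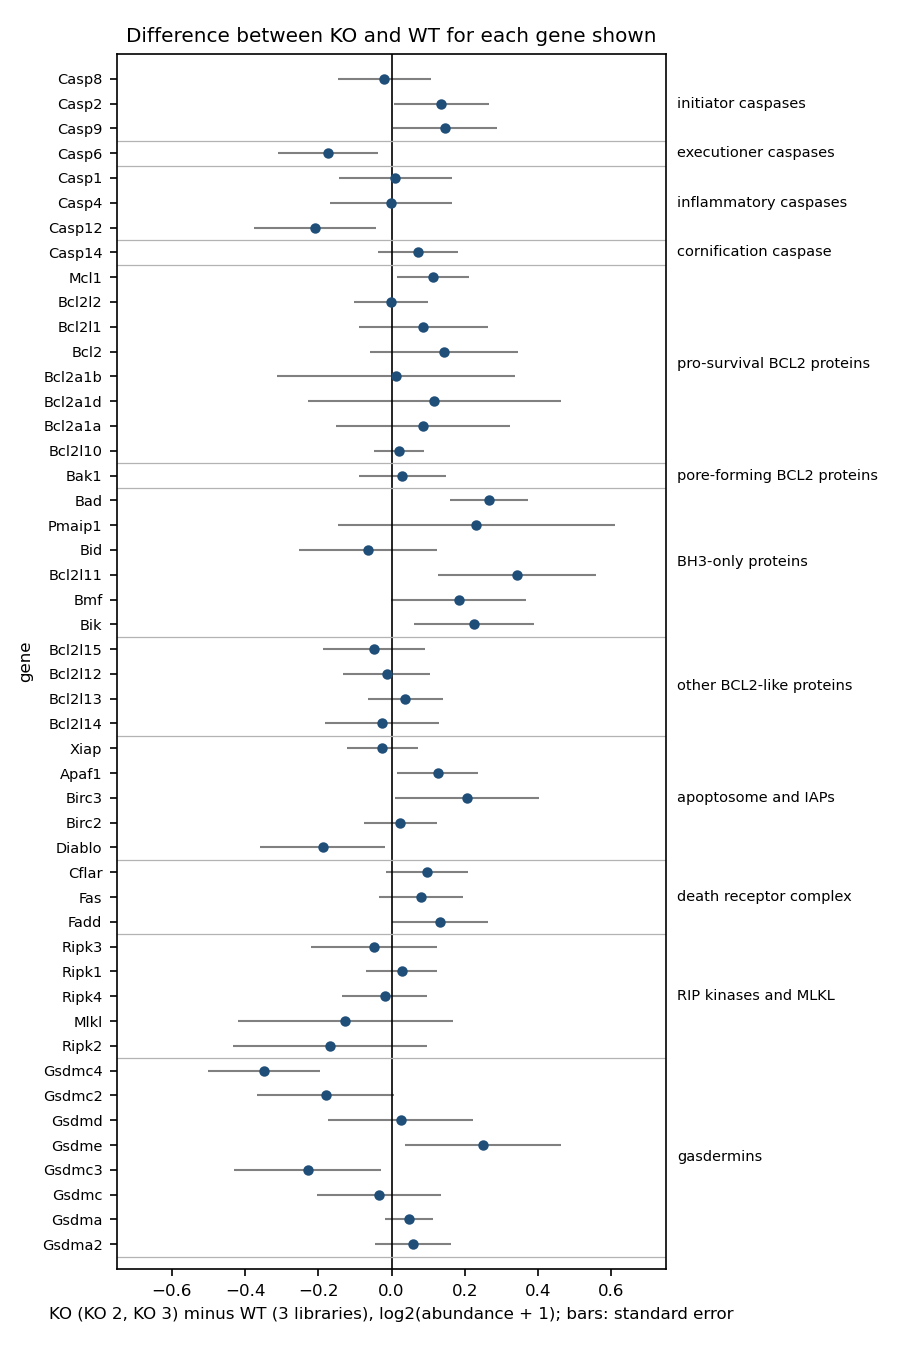
Difference between KO (KO 2 and KO 3) and WT (3 libraries) for 48 of the 50 genes tested, in log2(abundance + 1) units, with bars of 1 standard error, grouped by role. Points lie between -0.35 (Gsdmc4) and 0.34 (Bcl2l11), most bars reach or cross 0, and 5 of the 6 BH3-only genes lie to the right of it.

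Of the 3 initiator caspases, which start the cascade, 2 had a positive and 1 a negative difference (median 0.14). Casp8, the initiator bound by FADD, was at 5.18 and 5.01 in KO 2 and KO 3, with rescaled KO 1 at 5.50, against 5.20, 4.90 and 5.22 in WT. Casp2 was at 4.74 and 4.66 in KO against 4.67, 4.68 and 4.33 in WT, and Casp9, the caspase of the apoptosome, at 2.87 and 3.02 against 2.87, 2.91 and 2.62. The groups overlapped for all 3, with KO 2 above the WT range for Casp2 and KO 3 above it for Casp9.

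The executioners cleave most cellular targets of apoptosis. Casp6, an executioner that cuts nuclear lamins, was at 3.37 and 3.06 in KO against 3.27, 3.46 and 3.45 in WT, a difference of -0.17 ± 0.14 (SE; 95% interval -0.51 to 0.16), which was -0.02 without KO 3 and -0.33 without KO 2. KO 3 was the lowest of the 5 libraries and KO 2 lay within the WT range. Casp14, a caspase of skin cornification, was below 0.5 in all 5 libraries.

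The pro-survival proteins bind and block BH3-only proteins and pore formers. Of the 8 tested, 7 had a positive and 1 a negative difference (median 0.09), and none passed. Mcl1, a short-lived protein that many cells depend on, was at 5.15 and 5.36 in KO against 5.19, 5.05 and 5.19 in WT (0.11 ± 0.10 SE; 0.0080 without KO 3 and 0.22 without KO 2). Bcl2l1, which encodes BCL-XL, was at 3.60 and 4.12 in KO against 3.81, 3.63 and 3.89 in WT. In both genes KO 3 was the highest library and KO 2 lay within or just below the WT range. Bcl2l2 (BCL-W) was at 4.17 and 4.30 in KO, with KO 1 at 4.13, against 4.36, 4.16 and 4.18 in WT. Bcl2 itself was at 2.70 and 2.45 in KO, with KO 1 at 1.70, against 2.36, 2.74 and 2.20 in WT. Bcl2l10 was near 0, at 0.07 and 0.10 in KO and at 0, 0.19 and 0 in WT.

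The A1 genes are near-identical mouse copies of a pro-survival gene expressed mainly in blood cells. Their coding sequences, each 516 bases long, were 97.9% (Bcl2a1a and Bcl2a1b), 98.6% (Bcl2a1a and Bcl2a1d) and 98.8% (Bcl2a1b and Bcl2a1d) identical, with identical runs of up to 314 bases, so reads could have been split between them and each copy's own value is uncertain. The first 300 coding bases are shown because they let a reader see how little separates the copies. Capitals mark the 7 positions that differ among the 3 (GENCODE vM21 transcripts, GRCm38). They lie at chr9:88957051-88957350 on the + strand (Bcl2a1a), chr9:89199360-89199659 on the + strand (Bcl2a1b) and chr9:88731420-88731719 on the - strand (Bcl2a1d).
Bcl2a1a: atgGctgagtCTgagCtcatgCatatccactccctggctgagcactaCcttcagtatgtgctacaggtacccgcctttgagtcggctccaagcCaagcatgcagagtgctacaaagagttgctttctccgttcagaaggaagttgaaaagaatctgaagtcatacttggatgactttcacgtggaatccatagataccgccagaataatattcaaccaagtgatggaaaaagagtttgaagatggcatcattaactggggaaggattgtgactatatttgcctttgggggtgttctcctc
Bcl2a1b: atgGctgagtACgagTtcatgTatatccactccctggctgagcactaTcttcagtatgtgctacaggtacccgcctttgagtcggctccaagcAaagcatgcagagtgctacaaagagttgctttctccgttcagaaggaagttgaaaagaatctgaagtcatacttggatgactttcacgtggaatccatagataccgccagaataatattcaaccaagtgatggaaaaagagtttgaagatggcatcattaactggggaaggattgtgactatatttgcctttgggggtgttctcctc
Bcl2a1d: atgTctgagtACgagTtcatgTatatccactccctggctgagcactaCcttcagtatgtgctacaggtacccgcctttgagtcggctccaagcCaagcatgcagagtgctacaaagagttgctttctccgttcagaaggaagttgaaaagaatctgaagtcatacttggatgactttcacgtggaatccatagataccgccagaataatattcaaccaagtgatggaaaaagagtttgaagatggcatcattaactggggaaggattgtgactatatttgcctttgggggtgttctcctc

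The 3 copies varied more between libraries than between genotypes. Bcl2a1a was at 1.16 and 0.56 in KO 2 and KO 3 against 0.45, 0.92 and 0.94 in WT. Bcl2a1b was at 2.07 and 1.07 against 1.32, 1.77 and 1.58, and Bcl2a1d at 1.64 and 0.57 against 0.67, 1.27 and 1.02. KO 2 was highest for all 3 copies, and the KO pair spanned most or all of the WT range. Summed on the linear scale, the copies came to 6.53 in KO 2 and 2.07 in KO 3, against 2.45, 4.73 and 3.95 in WT. The 9 leukocyte markers, summed on the same scale, came to 275.6 in KO 2 and 94.7 in KO 3 against 98.2, 204.3 and 86.7 in WT. Both sums were highest in KO 2 and next in WT 2. WT 3 had the lowest leukocyte sum but an A1 sum above those of WT 1 and KO 3. Each of the 9 had a positive difference, none passed and none was at 0 in all 5. Their part in the A1 values was not tested. Bcl2a1c, the other A1 copy, was at 0 in all 5 libraries and was not tested.

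The promoters of the 3 copies shared short motifs. RefSeq (GRCm38.p6) gave 51 windows, each from 250 bases before to 50 after a start, for 39 of the 52 genes. A gene counted if any of its windows held the letters, while the shares given beside are of windows. The letters GAGGAAGT, a core that the blood cell factor PU.1 can bind, and TGANTCA, the AP-1 core, were searched on both strands, as were an interferon-stimulated response element (ISRE) core and an NF-kappaB core. GAGGAAGT was in the windows of Bad, Bak1, Bcl2l14 and the 4 A1 copies, and in 3.2% of all 32851 windows. The A1 genes are copies, so their matches are not independent. TGANTCA was in those of Bcl2a1a, Bcl2a1b, Bcl2a1d and Fas, and in 7.81% of all. The ISRE core was in the windows of Cflar, Gsdma3 and Ripk1 (3.44% of all) and the NF-kappaB core in those of Bcl2l1, Casp4, Gsdma3 and Mcl1 (1.63% of all), so in none of the A1 copies. GAGGAAGT and TGANTCA do not overlap in the Bcl2a1b promoter, where they begin 148 (GAGGAAGT) and 164 (TGANTCA) bases before the start. Its 250 upstream bases, chr9:89199023-89199272 on the + strand, are shown as the example, with both motifs in capitals.
Bcl2a1b promoter: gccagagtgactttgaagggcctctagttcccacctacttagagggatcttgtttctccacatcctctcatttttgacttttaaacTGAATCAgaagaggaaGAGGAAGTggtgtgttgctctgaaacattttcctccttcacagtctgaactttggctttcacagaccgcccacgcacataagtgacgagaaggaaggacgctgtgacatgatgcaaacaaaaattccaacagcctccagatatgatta

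Bak1 encodes a pore former of the mitochondrial outer membrane. It was at 5.02 and 4.99 in KO 2 and KO 3, with rescaled KO 1 at 5.57, against 4.95, 4.81 and 5.16 in WT. The 2 KO values used in the test were inside the WT range and KO 1 was above all others. The other BCL2-like genes, whose roles in death are less settled, stayed close to WT: Bcl2l12, Bcl2l13, Bcl2l14 and Bcl2l15 had differences from -0.05 to 0.04.

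The BH3-only genes are sensors that switch the mitochondrial route on. Of the 6 among the members, 5 had positive differences, beside 60.8% of all genes. The median of the 6 was 0.23, beside 0.023 over all genes, and none passed. Further BH3-only genes were in the list of BCL2 relatives and associated genes described below. The size differed between the KO libraries: the median of the 6 genes stood 0.10 above the WT mean in KO 2 and 0.37 above it in KO 3. It was 0.10 above that mean in WT 1, 0.07 below it in WT 2 and 0.02 below it in WT 3. KO 2 was thus at the upper end of the WT libraries and KO 3 above them. Bad (chr19:6941861-6951899, + strand, GRCm38), which binds BCL-XL when dephosphorylated, was at 3.60 and 3.81 in KO 2 and KO 3, with rescaled KO 1 at 3.62, against 3.45, 3.38 and 3.49 in WT. All 3 KO values were above all 3 WT values. The difference without KO 1 was 0.27 ± 0.11 (SE; 95% interval 0.0043 to 0.53), with a limma p of 0.0474 and an adjusted p of 1. Without KO 3 it was 0.16. Over the 20 tested genes that KO 1 covers, Bad was the 1 gene whose 3 KO values did not overlap WT, beside 5.89% of 10530 covered genes. Exons of Bad overlap those of Gpr137 on the other strand, and Gpr137 was at 3.44 and 3.82 in KO against 3.69, 3.57 and 3.61 in WT. The strand setting of the counting is not known from the sources, so reads of the pair cannot be told apart.

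Bcl2l11 encodes BIM, a BH3-only protein that binds all main pro-survival partners. It was at 2.83 and 3.30 in KO against 2.71, 2.99 and 2.47 in WT, a difference of 0.34 ± 0.22 (SE; 95% interval -0.19 to 0.88), which was 0.11 without KO 3 and 0.58 without KO 2. KO 3 was the highest library and KO 2 lay within the WT range. Pmaip1, which encodes NOXA, a p53 target that binds MCL1, was at 2.54 and 3.76 in KO, with rescaled KO 1 at 3.73, against 3.10, 2.58 and 3.07 in WT. KO 3 stood more than 0.5 above every other one of the 5 libraries. Pmaip1 was the 1 gene of 44 for which a single library stood so far out, beside 3.83% of all genes, and its difference was 0.23 ± 0.38 (SE), turning to -0.38 without KO 3.

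Bmf, a BH3-only protein tied to the cytoskeleton, was at 2.37 and 2.74 in KO against 2.19, 2.54 and 2.38 in WT. Bik was at 1.05 and 1.10 in KO, with rescaled KO 1 at 0.43, against 1.11, 0.64 and 0.79 in WT. KO 1 was the lowest library for Bik, and the groups overlapped for both genes. Bid, which caspase-8 cuts to link the death receptor route to mitochondria, was at 3.04 and 2.71 in KO against 3.21, 2.86 and 2.74 in WT. Bid was the BH3-only member with a negative difference (-0.06). Its exons overlap those of Bcl2l13 on the other strand.

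Downstream of mitochondria, APAF1 builds the apoptosome, IAP proteins hold caspases in check, and DIABLO relieves that hold. Of these 5 genes, 3 had a positive and 2 a negative difference. Apaf1 was at 5.01 and 5.23 in KO 2 and KO 3, with rescaled KO 1 at 5.71, against 5.07, 4.85 and 5.05 in WT. Diablo was at 3.37 and 3.47 in KO against 3.30, 3.76 and 3.76 in WT, where WT 1 lay below both KO values. Xiap, the direct caspase inhibitor, was at 5.07 and 5.04 in KO against 5.15, 4.94 and 5.16 in WT. Both KO values were inside the WT range. Birc3 (cIAP2), an NF-kappaB target and ubiquitin ligase of the TNF receptor complex, was at 5.33 and 4.96 in KO against 5.04, 5.16 and 4.62 in WT, and its partner Birc2 (cIAP1) at 3.73 and 3.56 against 3.61, 3.57 and 3.67. Birc3 was highest in KO 2 and next in WT 2, the libraries with the highest leukocyte marker sums, whose part was not tested.

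All 3 genes of the death receptor complex had positive differences, from 0.08 to 0.13, and none passed. Cflar, which encodes c-FLIP, a restraint on caspase-8, was at 5.46 and 5.28 in KO, with rescaled KO 1 at 5.68, against 5.42, 5.25 and 5.15 in WT. The receptor gene Fas was at 3.42 and 3.28 in KO against 3.37, 3.29 and 3.15 in WT. The adaptor gene Fadd was at 2.69 and 2.55 in KO against 2.45, 2.57 and 2.44 in WT. KO 2 was the highest of the 5 libraries for each of the 3, and KO 3 lay within the WT range.

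Of the RIP kinases and Mlkl, 1 had a positive and 4 a negative difference (median -0.05). Ripk1, the kinase at the branch between survival and death, was at 3.77 in both KO 2 and KO 3, with rescaled KO 1 at 3.93, against 3.80, 3.63 and 3.80 in WT. Ripk3, the kinase that phosphorylates MLKL, was at 4.62 and 4.49 in KO, with KO 1 at 5.31, against 4.53, 4.37 and 4.92 in WT. Both KO values used in the test lay within the WT range. Mlkl, the executioner of necroptosis, was at 3.36 and 2.53 in KO against 3.17, 2.74 and 3.32 in WT. Ripk2, the kinase that relays NOD1 and NOD2 signals, was at 2.49 and 1.66 in KO against 2.32, 2.13 and 2.29 in WT. For both, KO 2 was the highest and KO 3 the lowest of the 5 libraries. The difference for Mlkl was -0.13 ± 0.29 (SE) and turned to 0.29 without KO 3, and that for Ripk2 was -0.17 ± 0.26 and turned to 0.25. Ripk4, a kinase of epithelial differentiation, was at 3.21 and 3.03 in KO against 3.20, 3.05 and 3.16 in WT.

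KO 3 was also low in interferon-stimulated genes. The summed linear level of 38 such genes, none of them a member, was 811.7 in KO 2 and 370.5 in KO 3 against 932.6, 594.4 and 712.3 in WT. Their median was 1.0 below the WT mean in KO 3 and 0.09 above it in KO 2, and in rescaled KO 1 the median of the 16 it covers was 0.51 above. All 38 had a negative difference between KO 2 with KO 3 and WT, with a median of -0.39, none was at 0 in all 5 libraries and none passed. Mlkl and Ripk2 were lowest in that library, and the part of interferon-stimulated genes in their values was not tested.

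Of the inflammatory caspases, caspase-1 and caspase-11 cut gasdermin D. Casp1, the caspase of inflammasomes, was at 5.37 and 4.90 in KO against 5.06, 5.06 and 5.24 in WT (0.01). Casp4, the mouse caspase-11 that binds bacterial lipopolysaccharide in the cytosol, was at 4.90 and 4.85 in KO against 4.92, 4.58 and 5.13 in WT (-0.0012). Casp12 was at 2.99 and 2.61 in KO against 3.0, 3.16 and 2.86 in WT (-0.21 ± 0.17 SE; -0.02 without KO 3 and -0.40 without KO 2). KO 3 was lowest of the 5 libraries for Casp1 and Casp12, WT 2 for Casp4, and the groups overlapped for all 3.

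Of the gasdermins tested, 4 had a positive and 4 a negative difference (median -0.0046). Gsdmd (chr15:75862327-75867408, + strand), the main pore former of pyroptosis, was at 5.13 and 5.50 in KO 2 and KO 3, with rescaled KO 1 at 6.71, against 5.36, 4.97 and 5.54 in WT. The 2 KO values used in the test fell within the WT range (0.03 ± 0.20 SE), while KO 1 lay 1.17 above the highest other library. Gsdme (chr6:50188888-50263862, - strand), a gasdermin that an executioner caspase can cut, was at 4.92 and 5.61 in KO against 5.17, 4.97 and 4.89 in WT. KO 3 was above and KO 2 within the WT range, so the difference of 0.25 ± 0.21 (SE) turned to -0.10 without KO 3. Gsdma and Gsdma2, members of the skin-expressed group, were below 0.5 in all 5 libraries and Gsdma3 was at 0 in them.

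The Gsdmc genes form a cluster on mouse chromosome 15, and Gsdmc2, Gsdmc3 and Gsdmc4 are expressed by gut epithelium. Their coding sequences, 1440 bases each, were 97.1% (Gsdmc2 and Gsdmc3), 93% (Gsdmc2 and Gsdmc4) and 93% (Gsdmc3 and Gsdmc4) identical, with identical runs of up to 317 bases, and Gsdmc was 82.8% to 84% identical to them. The first 200 coding bases of the 3 are shown since all 3 had negative differences, Gsdmc4 the largest among the 50 genes, and their reads may have been shared. Capitals mark the 2 positions that differ among the 3 (GENCODE vM21 transcripts, GRCm38, - strand). They lie at chr15:63835744-63835943 (Gsdmc2), chr15:63869098-63869297 (Gsdmc3) and chr15:63902731-63902930 (Gsdmc4).
Gsdmc2: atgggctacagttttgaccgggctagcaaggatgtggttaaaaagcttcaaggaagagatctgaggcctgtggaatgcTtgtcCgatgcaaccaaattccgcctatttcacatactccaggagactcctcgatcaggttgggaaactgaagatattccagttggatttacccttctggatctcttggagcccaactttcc
Gsdmc3: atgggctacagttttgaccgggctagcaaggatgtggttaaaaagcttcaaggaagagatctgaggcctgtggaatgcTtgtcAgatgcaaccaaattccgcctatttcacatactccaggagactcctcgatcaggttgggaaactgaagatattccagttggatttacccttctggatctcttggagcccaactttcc
Gsdmc4: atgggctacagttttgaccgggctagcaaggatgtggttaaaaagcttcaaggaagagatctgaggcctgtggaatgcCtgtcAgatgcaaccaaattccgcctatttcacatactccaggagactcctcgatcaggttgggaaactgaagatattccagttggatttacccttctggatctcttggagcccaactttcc

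Gsdmc4 was at 6.20 and 5.71 in KO 2 and KO 3, with rescaled KO 1 at 6.66, against 6.34, 6.28 and 6.29 in WT. KO 2 and KO 3 were below all 3 WT libraries and KO 1 was above them. The difference without KO 1 was -0.35 ± 0.15 (SE; 95% interval -0.73 to 0.03), with a limma p of 0.0639 and an adjusted p of 1. It was -0.10 without KO 3. Gsdmc2 was at 5.75 and 5.11 in KO, with KO 1 at 6.01, against 5.64, 5.60 and 5.59 in WT, and Gsdmc3 at 5.27 and 4.60, with KO 1 at 5.34, against 5.19, 5.25 and 5.05. Gsdmc was at 1.63 and 1.30 in KO, with KO 1 at 1.64, against 1.59, 1.38 and 1.53 in WT. In all 4 genes KO 3 was lowest, and in all but Gsdmc4 KO 2 was the highest of the 5 libraries.

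The sum of Gsdmc2, Gsdmc3 and Gsdmc4 is less affected by how reads were split among them, though it still depends on any length scaling and on the treatment of shared reads, which the sources do not give. On the linear scale it was 162.9 in KO 2 and 108.1 in KO 3, with rescaled KO 1 at 203.2, against 164.5, 161.1 and 156.5 in WT. KO 3 had 0.670 of the mean of the other 4 libraries, while KO 2 lay within the WT range. The differences of Gsdmc2 (-0.18 ± 0.19 SE) and Gsdmc3 (-0.23 ± 0.20 SE) turned to 0.14 and 0.11 without KO 3. The 9 epithelial markers, summed, came to 1734 in KO 2 and 1955 in KO 3, against 1962, 1609 and 1968 in WT, and their part in the Gsdmc values was not tested.

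**Figure D2:**
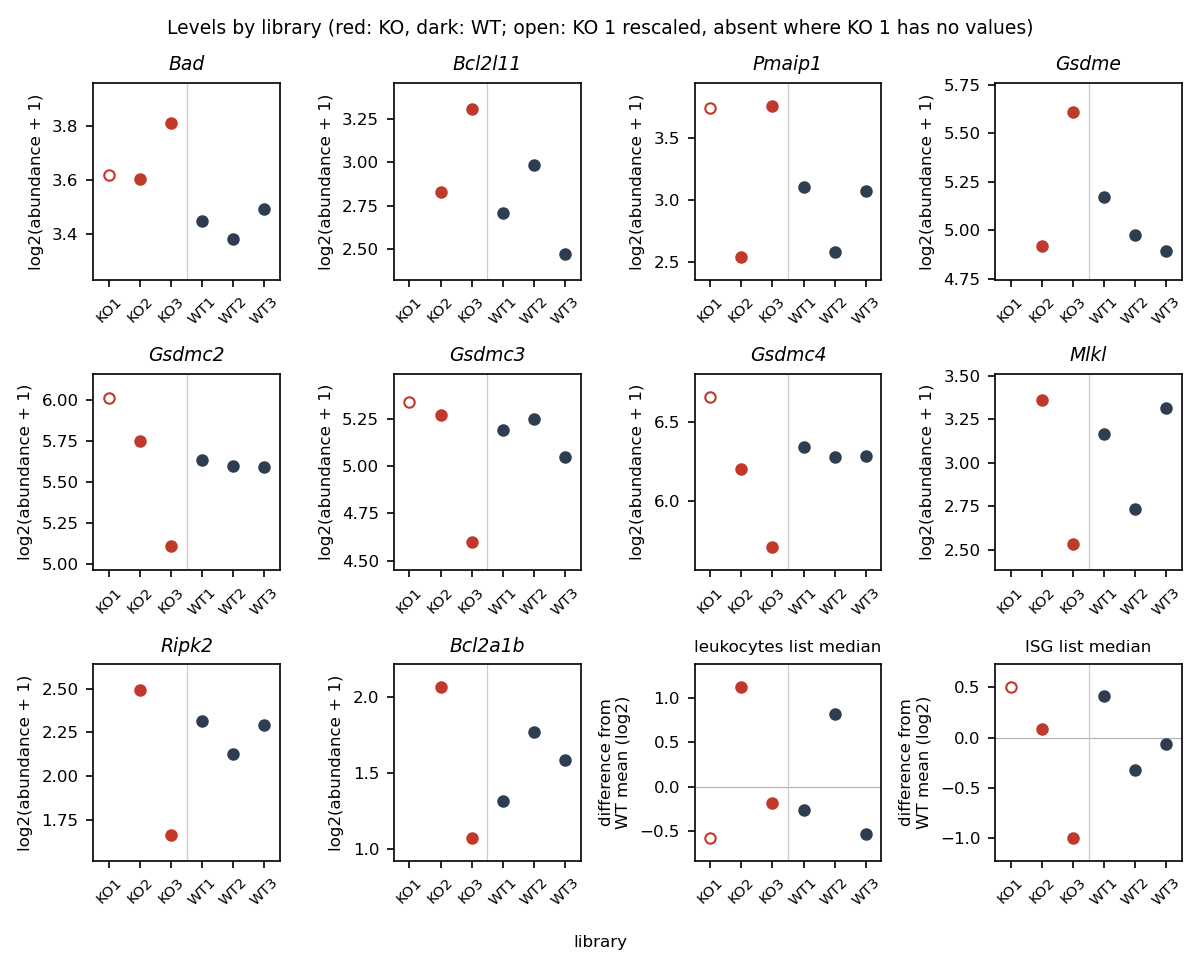
Level in log2(abundance + 1) of 10 genes in each library, and the median difference from the WT mean of 9 leukocyte markers and 38 interferon-stimulated genes (ISG), with KO in red, WT in dark and rescaled KO 1 as an open circle. KO 3 is highest for Bad, Bcl2l11 and Gsdme and lowest of the 5 libraries for Gsdmc2, Gsdmc3, Gsdmc4, Mlkl, Ripk2 and Bcl2a1b, while KO 2 is highest of the 5 for Mlkl, Ripk2 and Bcl2a1b.

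The 2 KO libraries of the test differed in how often each was the highest or the lowest of the 5. Of the 44 genes at a mean of 1 or more, KO 2 was the highest of the 5 libraries for 19 and the lowest for 2, beside 24.3% and 11.08% of all genes. KO 3 was the highest for 9 and the lowest for 15, beside 24.35% and 18.15% of all genes. WT 2 was lowest for 14 (16.24% of all genes), among them Casp8, Gsdmd, Bak1, Ripk3 and Bcl2l15. WT 2 was also the library with the lowest sum of epithelial markers, 1609 against 1734 to 1968 in the other 4, whose part was not tested. Leaving KO 2 out raised the number of the 50 genes with an unadjusted limma p under 0.05 to 7 (Gsdmc2, Gsdmc3, Gsdmc4, Bad, Pmaip1, Ripk2 and Gsdme), beside 5.46% of all genes, with the lone KO 3 library assumed to vary like WT. None of the 7 passed adjustment, where the lowest adjusted p was 0.737. Leaving KO 3 out gave 0, beside 3.02% of all genes, and leaving WT 1 out gave 3, beside 2.19%.

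**Figure D3:**
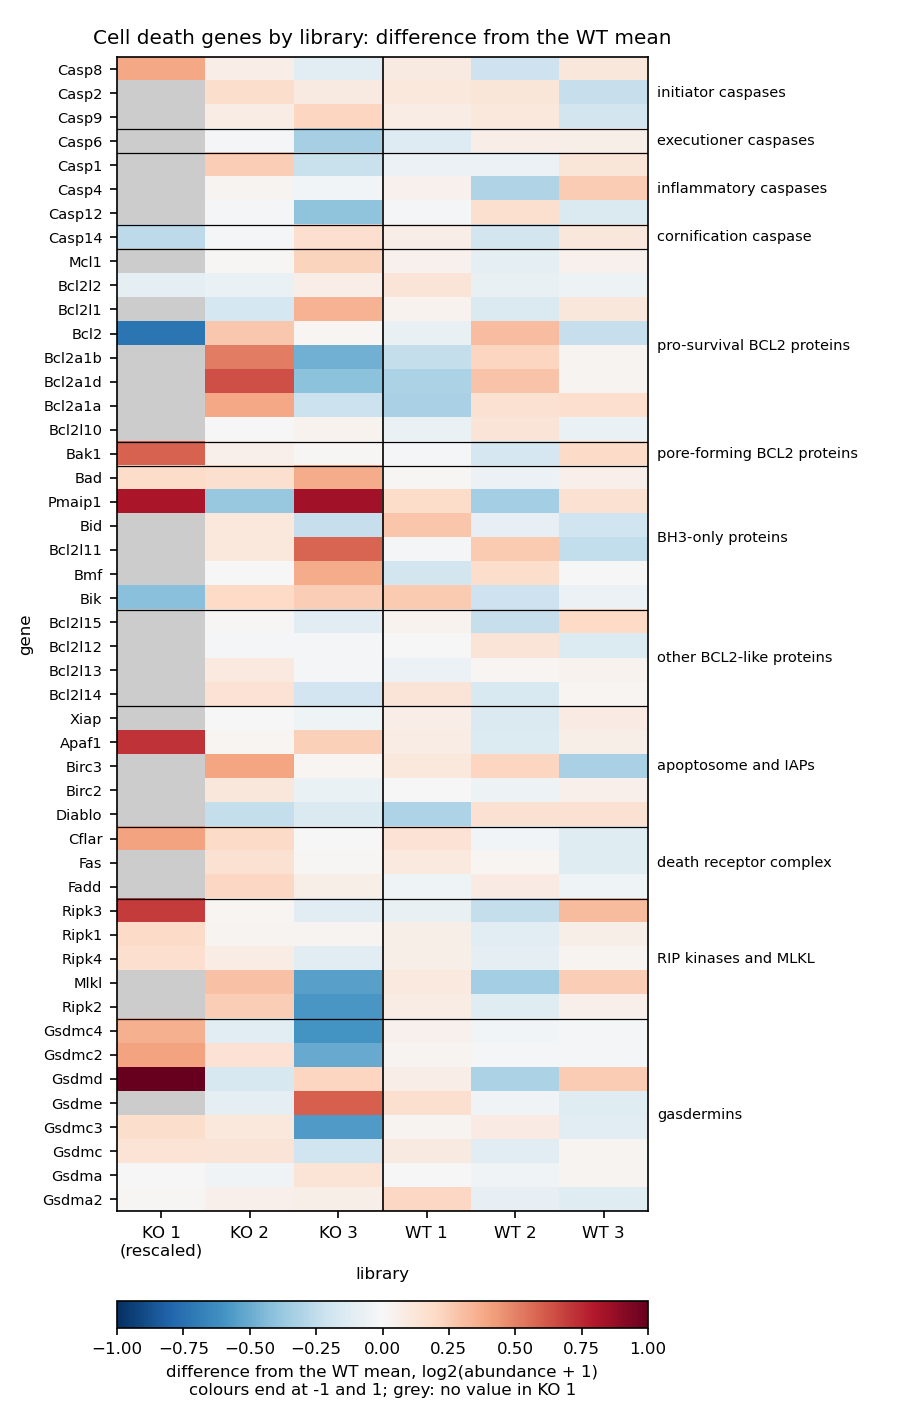
Difference of each library from the WT mean, in log2(abundance + 1) units, for 48 of the 50 genes tested, grouped by role, with KO libraries left of WT and grey where KO 1 has no value. KO 3 shows higher Pmaip1, Bcl2l11 and Gsdme and lower Gsdmc2 to Gsdmc4, Mlkl and Ripk2, and rescaled KO 1 shows its largest value at Gsdmd (6.71 against 4.97 to 5.54 in the other 5 libraries).

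KO 1 was set beside the other 5 libraries as a description, since a single library allows no test. Of the 16 genes it covers at a mean of 1 or more, Gsdmd was 1 or more above the others, beside 1.17% of 6516 covered genes. None was 1 or more below them, beside 5.46% of covered genes. KO 1 was the highest of the 6 libraries for 12 of the 16, beside 20.9% of covered genes. After Gsdmd, it stood farthest above the range for Apaf1 (by 0.49), Bak1 (0.40), Ripk3 (0.39), Gsdmc4 (0.32), Casp8 (0.28), Gsdmc2 (0.26) and Cflar (0.21). It was below the range for Bcl2 by 0.50 and for Bcl2l2 by 0.02. In the same library the median of the smooth muscle markers was 4.36 below the WT mean over the 2 it covers, that of fibroblast markers 2.07 below over 3, of glia markers 0.92 below over 3, of endothelial markers 0.71 below over 2 and of leukocyte markers 0.58 below over 3. The epithelial median was 0.31 above the WT mean over 6, and that of interferon-stimulated genes 0.51 above over 16. The part of these lists in the 12 values was not tested. As deposited, without rescaling, 12 of the 16 were 1 or more above the others, beside 22.68% of covered genes.

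**Figure D4:**
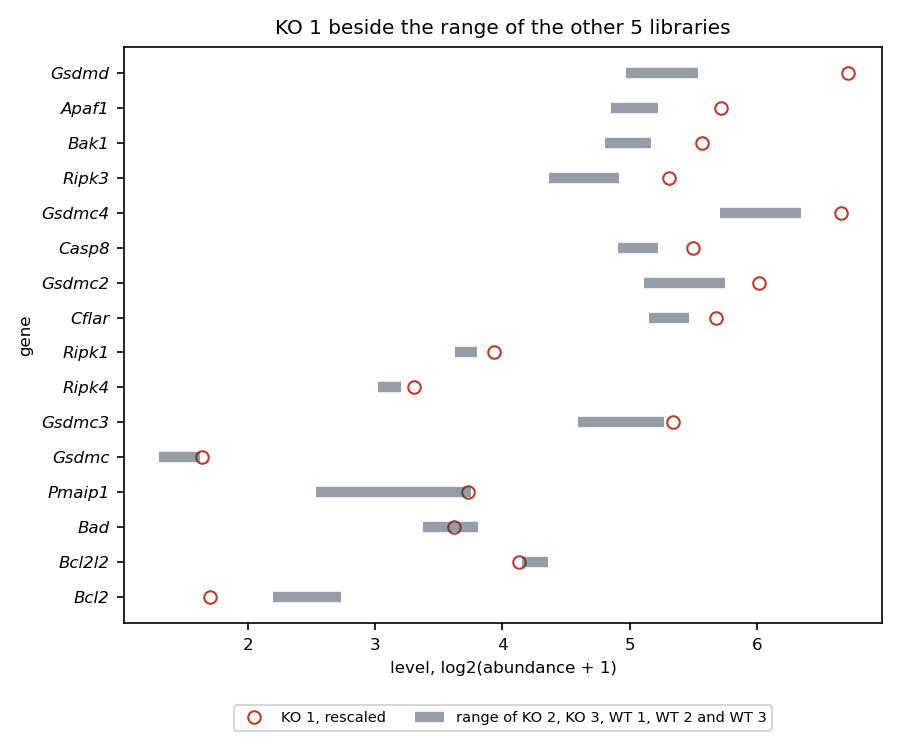
Rescaled KO 1 (open circles) beside the range of KO 2, KO 3, WT 1, WT 2 and WT 3 (bars), in log2(abundance + 1) units, for the 16 genes that KO 1 covers at a mean of 1 or more. KO 1 lies to the right of the bar for 12 genes, farthest for Gsdmd at 6.71, and to the left of it for Bcl2 at 1.70 and, by 0.02, for Bcl2l2.

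Other genes of these pathways were grouped into 8 lists by function, and none of them held a gene that passed. Among 28 death ligands, receptors and adaptors, 21 had a positive and 7 a negative difference (median 0.06). Tnf, the ligand that can start either survival or death, was at 1.66 and 1.51 in KO 2 and KO 3, with rescaled KO 1 at 1.12, against 1.28, 1.32 and 0.93 in WT (0.41 ± 0.18 SE). KO 2 and KO 3 were above all WT libraries and KO 1 was not. Ikbkg, the regulatory subunit of the IkappaB kinase, had a difference of 0.31, Otulin, which trims linear ubiquitin chains, 0.14, and the TRAIL receptor gene Tnfrsf10b -0.20.

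Among 23 inflammasome genes, 12 had a positive and 11 a negative difference (median 0.03). Aim2, a sensor of cytosolic DNA, had 0.21, Nlrp10 0.14, Ninj1, which ruptures the membrane of dying cells, -0.16 and the interferon-induced Gbp2 -0.29. Zbp1, a nucleic acid sensor that can activate RIPK3, was at 5.03 and 3.45 in KO against 4.93, 4.21 and 4.55 in WT. It was lowest in KO 3, as Mlkl was. It was named after its values were seen.

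The mitochondrial effectors gave 8 positive and 7 negative differences (median 0.01). Bax, the pore former paired with Bak1, was at 3.52 and 3.59 in KO against 3.32, 3.44 and 3.59 in WT, and the other named effectors were Aifm2 (0.22), Endog (-0.25) and cytochrome c, Cycs (-0.14). A list of BCL2 relatives and associated genes outside the members, Bax included, gave 11 positive and 3 negative differences (median 0.07). It held genes that are not of the BCL2 family, such as the BAG genes, Tmbim6 and Moap1. Its BH3-only genes Bbc3 and Hrk had 0.07 and 0.02, and Hrk was near 0 in all 5 libraries. Of the same list, the BAG gene Bag4 had 0.13, and the mitophagy receptors Bnip3 and Bnip3l 0.15 and 0.10.

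The list of 24 p53 target genes, which counted Trp53 itself, gave 15 positive and 9 negative differences (median 0.05). Btg2 had 0.35, Pidd1, which activates caspase-2, 0.20, Plk3 0.17 and Mdm2, the ligase that degrades p53, 0.10. Of 9 further IAP genes and antagonists, 6 were positive and 3 negative (median 0.05). Xaf1, an interferon-induced XIAP antagonist, had -0.46, Birc5 (survivin) 0.16, and the flagellin sensor gene Naip5 and its relative Naip2 0.14 and 0.08. The 17 genes listed for caspase targets and DNA fragmentation gave 10 positive and 7 negative differences (median 0.0055), with Acin1 at 0.29 and the scramblase gene Xkr8 at 0.12.

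Ferroptosis is a caspase-independent death driven by lipid peroxides. Of 18 genes of that route, 11 had a positive and 7 a negative difference (median 0.04). An unadjusted limma p under 0.05 was reached by 1 of the 18, beside 2.41% of all genes, and by none in the other pathway lists. That gene was Alox15, a lipoxygenase, at 1.08 and 1.02 in KO 2 and KO 3, with rescaled KO 1 at 0.72, against 0.80, 0.63 and 0.71 in WT. The difference without KO 1 was 0.34 ± 0.10 (SE), with a limma p of 0.0184 and an adjusted p of 1, and KO 1 lay inside the WT range. Ptgs2, Slc7a11 and Aifm2 had differences of 0.44, 0.60 and 0.22 with wider errors. Slc7a11, the cystine importer, was at 2.12 and 1.01 in KO against 0.51, 1.63 and 0.75 in WT, with KO 2 and WT 2 highest.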

How the data were processed

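RNA of tissue labelled whole duodenum was measured in 3 KO and 3 WT libraries, grouped by the genotype label. A single table of log values covers all 6, as the authors deposited it, with mm10 as the build per the submitters' processing notes. Aligner, counter, strand setting, abundance unit and log base: not given in the sources used here. The deposited values are taken as log2(abundance + 1): over 111 T cell receptor and immunoglobulin segments, repeated values undone on base 2 were whole multiples of 1 step in each library, within 0.0012 of a whole number, while base e missed by 0.061 to 0.39. That step, which is smaller in a deeper library, was 0.189 in rescaled KO 1 and 0.153 to 0.226 in the other 5 libraries, and read depth itself is unknown. Differences on this scale understate changes of genes near 0.

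Of 32245 rows, 26 held a date in place of a symbol and were left out. GENCODE vM21 placed 31398 of 32219 genes and all 52 members. A gene was kept if 2 or more of the 5 libraries without KO 1 had it above 0 (23408 genes). limma 3.58.1 (R 4.3.3; trended variance) compared KO 2 and KO 3 with 3 WT libraries, 2-sided, with Benjamini-Hochberg adjustment over all genes kept and a threshold of 0.05. KO 1 was rescaled by the median ratio over 1925 genes. On simulated data (5 runs, 200 changed genes each) the test made a mean of 10.2 false calls. Pairwise alignment used Biopython 1.88. Alternatives covered the libraries fitted, replicate block, scaling, filter, added constant, variance model and leaving out each library. Genes were named by smallest p in each direction, by distance of KO 1, by level and by role. In each further list, up to 4 genes with the smallest p were named. The members, the lists and these rules were chosen with earlier results of these data known. Values of some members and listed genes are not reported here. Exons of 11 members overlap a gene on the opposite strand and those of 5 a gene on the same strand.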

Additional observations from a re-analysis of the deposited data

Results flagged for a closer look

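Gsdmd stood at 6.71 in rescaled KO 1, a library outside the comparison, against 4.97 to 5.54 in the other 5 libraries. It was singled out because a library that no test used lay 1.17 above every other library. Of 6516 covered genes, 76 (1.17%) were likewise 1 or more above the other 5 libraries in rescaled KO 1. The same library had high proximal and low smooth muscle markers, and their part in the Gsdmd value was not tested. Groups of 3 libraries were too small for a check of single outlying libraries within a group.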

How the results depend on the processing

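No member passed the threshold under any of the 18 alternatives tried, leave-one-out included (0 to 0 members). The 1 gene called, Gm49380, fell to 0 genes with all 6 libraries as deposited, with KO 1 added after rescaling on its covered genes, under the replicate block, without a filter, with a minimum mean of 1, with an added constant of 0.1, and when any library was left out (0 to 0). With the replicate block the lowest adjusted p over all genes was 0.284 and the members split into 34 positive and 16 negative. Deviations from the group means were correlated between libraries of the same number (r = 0.303 for number 2 and 0.346 for number 3 over 14311 genes). With 2 KO libraries, the deviations of KO 2 and KO 3 are equal and opposite, so the 2 values of r are not independent. The number was not taken as a pairing. Of 287 differences of 16 named members, 273 kept their direction and 14 turned, and the cause was not tested. The filter and variance trend settings leave a difference unchanged, and the replicate block gives the same difference as leaving WT 1 out. Many of the 273 could therefore not have turned, and the count is no measure of stability. The 16 were those with the smallest p in each direction, and Pmaip1, which turned without KO 3, was not among them. With all 6 libraries as deposited, where zeros stand for missing values in KO 1, the differences were -0.68 (Bcl2l11), -1.50 (Gsdme), -1.64 (Mcl1), -1.51 (Birc3), -1.43 (Casp2), 0.25 (Gsdmc4), 0.27 (Gsdmc3) and 0.38 (Gsdmc2), and the median over members was -0.67. With KO 1 rescaled, Gsdmc2 came to 0.014. Leaving out each library gave -0.10 to 0.60 (Gsdme), -0.56 to 0.11 (Gsdmc3), -0.50 to 0.14 (Gsdmc2), -0.58 to 0.25 (Ripk2) and -0.54 to 0.29 (Mlkl), each range running between the values without KO 2 and without KO 3. Without KO 2, 24 members were positive and 26 negative. As deposited, KO 1 stood 1 or more above the other libraries for 12 members, beside 22.68% of 6516 covered genes. With a divisor of 2.01 it did so for 1 member, beside 1.335% of covered genes. The test of 2 against 3 libraries, with unknown read depth, limits every statement.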
